A study of Homo sapiens with 6 samples.

Results

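The Hippo pathway core comprised WWC1, its paralog WWC2, NF2, SAV1, the kinases STK3, STK4, LATS1 and LATS2, and the coactivators YAP1 and WWTR1. These 10 genes, of 26699 in the count table, were taken by their symbol in the table. They were selected on the difference of WWC1 between the si and sinc libraries, which was known from an earlier look at the same data. Their differences and edgeR calls are therefore given as a description and are not read as a test. All 10 passed the filter on low counts. RNA sequencing covered 6 libraries of OVCA433, an established cell line from human ovarian cancer, which the labels divide into sinc (3 libraries) and si (3 libraries). Neither abbreviation is explained in the labels, which give no further treatment, dose or time. The study asked how a deficiency of SOGA1, which encodes a coiled-coil protein, changes expression in these cells. Since nothing in the labels ties the libraries to separate cultures, a p-value here reflects no more than the spread among these libraries, and that spread may be technical.

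The Hippo pathway restrains growth through a kinase cascade. STK4 and STK3 (also called MST1 and MST2), held by the scaffold SAV1, activate the LATS kinases, which phosphorylate YAP1 and WWTR1 (TAZ) and keep them out of the nucleus. When the cascade is quiet, YAP1 and WWTR1 enter the nucleus and switch on genes together with TEAD transcription factors. WWC1, also called KIBRA, and NF2, also called Merlin, act upstream at the cell cortex and bring the kinases together. NF2 and the LATS kinases are known as tumour suppressors.

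SOGA1 (ENSG00000149639), the targeted gene, was read first. Its level, in counts scaled to the library size (CPM), was 64.4, 59.7 and 63.9 in the sinc libraries and 25.3, 27.2 and 20.2 in the si libraries, each in the order of replicates 1 to 3. Every si library lay below every sinc library. The log2 fold change, si minus sinc throughout, was -1.37 with a standard error of 0.11 (edgeR quasi-likelihood test, two-sided, Benjamini-Hochberg adjusted p = 0.000963 over 15562 genes tested). The smallest library, si replicate 3, held 33778707 counts and the largest, sinc replicate 2, held 44130601. The epithelial keratin genes KRT7, KRT8 and KRT18 and the Müllerian factor PAX8 were abundant, at 2298, 2208, 1915 and 687 CPM in sinc, while EPCAM stood at 1.22 CPM and WT1 was near 0. The 8 epithelial markers measured summed to between 6943 and 7403 CPM in sinc and between 7113 and 7568 CPM in si. The 8 stromal, endothelial and leukocyte markers measured summed to between 103 and 109 CPM in sinc and between 128 and 142 CPM in si. Nearly all of that sum was the collagen gene COL1A1, which rose by a log2 fold change of 0.34 (SE 0.06, edgeR adjusted p = 0.0172), whereas DCN, CD3E, PECAM1 and CD14 were at or near 0. The part of this rise in the differences below was not tested. In bulk RNA, fewer cells with a transcript and less of it per cell cannot be told apart.

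The WWC1 transcript holds a stretch of coding sequence that is nearly identical to one in SOGA1, and both are shown because WWC1 had the widest difference between the groups in the pathway core. The SOGA1 stretch was picked out earlier on these same libraries, as the 21 coding bases that end in the only TGAAGTA of the SOGA1 coding sequence, and is therefore no independent support for any difference. It lies at chr20:36816186-36816206 on the minus strand of GRCh38, in exon 5 of 15. Its counterpart in WWC1 lies at chr5:168414444-168414464 on the plus strand, in exon 9 of 23. The lines below give both, with the coding positions of WWC2 and WWC3 that align with the WWC1 site, chr4:183253853-183253873 and chrX:10109874-10109894, both on the plus strand and in exon 9 of 23. In the SOGA1 line the capitals mark the 19 bases that WWC1 shares in 1 unbroken run. In the others they mark each base that equals the SOGA1 base at the same position.
SOGA1: GAAGGAGGAGCTGCTGAAGta
WWC1: GAAGGAGGAGCTGCTGAAGgA
WWC2: aAAaGAaGAaCTttTGAAagA
WWC3: GAAGGAGGccCTGCTGcAGgA
The WWC1 site equalled the SOGA1 stretch at 20 of 21 positions and differed by T20G, counted from 1 at the 5′ end of the stretch. The site was present in 4 of 5 coding transcripts of WWC1. At the aligned place WWC2 matched at 13 of 21 positions and WWC3 at 17 of 21, and their coding sequences were 56.7% and 51.7% identical to that of WWC1.

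WWC1 (ENSG00000113645, GRCh38 chromosome 5, 168292150 to 168469216), the scaffold that links the cortex to the kinases, had the widest difference among the 10 genes. It stood at 171, 165 and 177 CPM in the sinc libraries and at 74.7, 71.1 and 89.1 CPM in the si libraries. Every si library lay far below every sinc library, and si replicate 3 was the highest of the si group. The means were 171 ± 6.07 and 78.3 ± 9.53 CPM (SD, n = 3 each), so that the si mean was 45.8% of the sinc mean. The log2 fold change was -1.13 (SE 0.09). It ranged from -1.24 to -1.07 over 16 other settings, among them each library left out in turn, and was -1.15 when each library was corrected for the length and GC content of transcripts.

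WWC2 (ENSG00000151718, chromosome 4, 183099492 to 183318434), the close homolog of WWC1, was lower too. Its levels were 23.1, 19.4 and 18.7 CPM in sinc against 9.86, 15.0 and 9.83 CPM in si. The groups did not overlap, although si replicate 2 lay nearer to the sinc libraries than the other si libraries did. WWC2 differed by a log2 fold change of -0.82 (SE 0.19), and by -0.43 (SE 0.12) after the length and GC correction. The third family member, WWC3 (ENSG00000047644, chromosome X, 10015562 to 10144478), is no member of the chosen core. It stood at 50.6, 46.0 and 52.2 CPM in sinc and at 32.2, 32.6 and 36.0 CPM in si. WWC3 fell by 0.56 on the log2 scale (SE 0.08, edgeR adjusted p = 0.00877). The adjusted p was 0.0579 without sinc replicate 1 and 0.061 after the length and GC correction. All 3 WWC genes were therefore lower in si, and WWC1 by the most.

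NF2 (ENSG00000186575, chromosome 22, 29603558 to 29698598), the cortical tumour suppressor upstream of the LATS kinases, stood at 18.2, 19.8 and 16.7 CPM in sinc and at 17.6, 17.8 and 28.0 CPM in si. The groups overlapped, and the higher si mean came from si replicate 3 alone. The log2 difference of NF2 was 0.21 (SE 0.19), with -0.053 without si replicate 3 and 0.33 (SE 0.21) after the length and GC correction.

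Of the first kinase step, the scaffold SAV1 (ENSG00000151748, chromosome 14, 50633636 to 50668331) read 15.7, 17.5 and 19.3 CPM in sinc and 15.1, 14.4 and 16.2 CPM in si. The groups overlapped at 1 library of each, and the log2 fold change was -0.20 (SE 0.12), and 0.0049 (SE 0.13) after the correction. STK3 (ENSG00000104375, chromosome 8), the kinase MST2, read 9.02, 8.84 and 9.44 CPM in sinc against 8.88, 8.62 and 9.92 CPM in si. Its groups overlapped throughout, with a log2 fold change of 0.0057 (SE 0.13), and of 0.29 (SE 0.17) after the correction. Its partner kinase STK4 (ENSG00000101109, chromosome 20, 44966474 to 45079959), known as MST1, read 55.6, 45.3 and 52.3 CPM in sinc and 38.2, 39.3 and 32.7 CPM in si. STK4 was lower in every si library than in any sinc library, with a log2 fold change of -0.47 (SE 0.10), which shrank to -0.10 (SE 0.10) after the length and GC correction.

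The means of the LATS kinases, which phosphorylate YAP1 and WWTR1, differed in opposite directions. LATS1 (ENSG00000131023, chromosome 6, 149658153 to 149718256) stood at 12.5, 10.3 and 12.3 CPM in sinc and at 6.28, 11.6 and 5.55 CPM in si. Replicates 1 and 3 of si were low, whereas si replicate 2 lay within the sinc range, so the groups overlapped. The log2 difference of LATS1 was -0.58 (SE 0.27), with -0.99 without si replicate 2 and -0.16 (SE 0.18) after the length and GC correction. LATS2 (ENSG00000150457, chromosome 13, 20973032 to 21061547) stood at 39.1, 38.2 and 36.2 CPM in sinc and at 44.1, 44.6 and 45.0 CPM in si. Every si library was above every sinc library, and the si values were close together. For LATS2 the log2 fold change was 0.24 (SE 0.06), and it was 0.38 (SE 0.07) after the length and GC correction.

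The coactivators at the end of the cascade were lower in si by less than WWC1. YAP1 (ENSG00000137693, chromosome 11, 102110461 to 102233423) stood at 66.5, 58.2 and 67.2 CPM in sinc and at 47.0, 54.7 and 43.3 CPM in si. The groups did not overlap, and si replicate 2 was again the si library nearest to sinc. For YAP1 the log2 fold change was -0.40 (SE 0.10), and it was -0.073 (SE 0.09) after the length and GC correction. WWTR1 (ENSG00000018408, chromosome 3, 149517235 to 149703273), the homolog of YAP1, stood at 23.1, 19.3 and 19.5 CPM in sinc and at 18.4, 18.5 and 17.5 CPM in si. The si values lay just below the lowest sinc value, with a log2 fold change of -0.19 (SE 0.11) that turned to 0.19 (SE 0.10) after the correction.

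**Figure D1:**
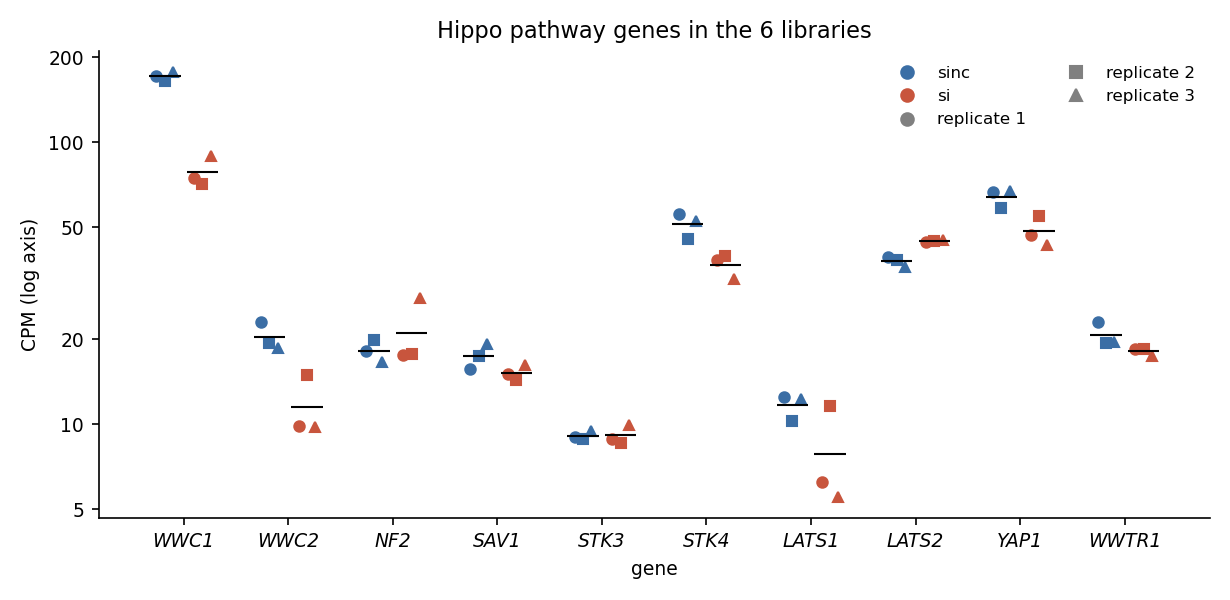
CPM (log axis) of the 10 Hippo genes in each library, with sinc and si in separate colours, the replicate number as the marker and the group mean as a bar. WWC1 has the widest gap, from 171 to 78.3 CPM, whereas STK3 and NF2 overlap between the groups.

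Of the 10 genes, 4 were called lower by edgeR at an adjusted p under 0.05 (WWC1, WWC2, STK4 and YAP1), none was called higher and 6 were not called. Over all 15562 genes tested, 934 (6.00%) were called lower, 645 (4.14%) higher and 10.1% in either direction. Groups that did not overlap were found for 5 of the 10 genes in the lower direction and for 1 in the higher direction, against 16.8% and 18.1% of all genes tested. Nothing is read from these counts, since the genes were chosen with this contrast known. The median log2 fold change of the 10 was -0.30, and that of all genes tested was 0.0058. With sinc replicate 1, sinc replicate 3 or si replicate 1 dropped, 1 of the 10, WWC1, was called lower. With sinc replicate 2 or si replicate 3 left out the number was 2, and with si replicate 2 left out it was 5.

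Long transcripts were lower in si across the whole table, and the coding transcripts of 9 of the 10 genes were longer than 3078 bases, the median of the genes tested, with SAV1 at 3063 bases the exception. The 3208 genes with transcripts of at least 4791 bases had a median log2 fold change of -0.28, with 479 called lower and 32 higher (14.9% and 0.998%). The 3209 genes of at most 1960 bases had a median of 0.15, with 57 called lower and 320 higher. The transcripts of STK4, LATS1, YAP1 and WWC2 measured 6342, 7517, 5398 and 6356 bases, and that of WWC1 3562 bases. With all exons of each gene joined the lengths were 9075, 8643, 6296 and 9966 bases, and 10076 bases for WWC1. The correction below used the transcript lengths, and the joined lengths were not tried in it. Against the sinc mean, the median long gene stood at -0.35 in si replicate 1, -0.13 in si replicate 2 and -0.38 in si replicate 3. The si library nearest to sinc for long genes was also the one nearest to sinc for WWC2, LATS1 and YAP1. For WWC1 the same library, at 71.1 CPM, lay farthest from sinc. The part of length in these differences was not tested. With each library corrected for length and GC content, 1 of the 10 genes was called lower, WWC1, and 1 higher, LATS2, and the calls over the table were 331 lower and 230 higher.

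**Figure D2:**
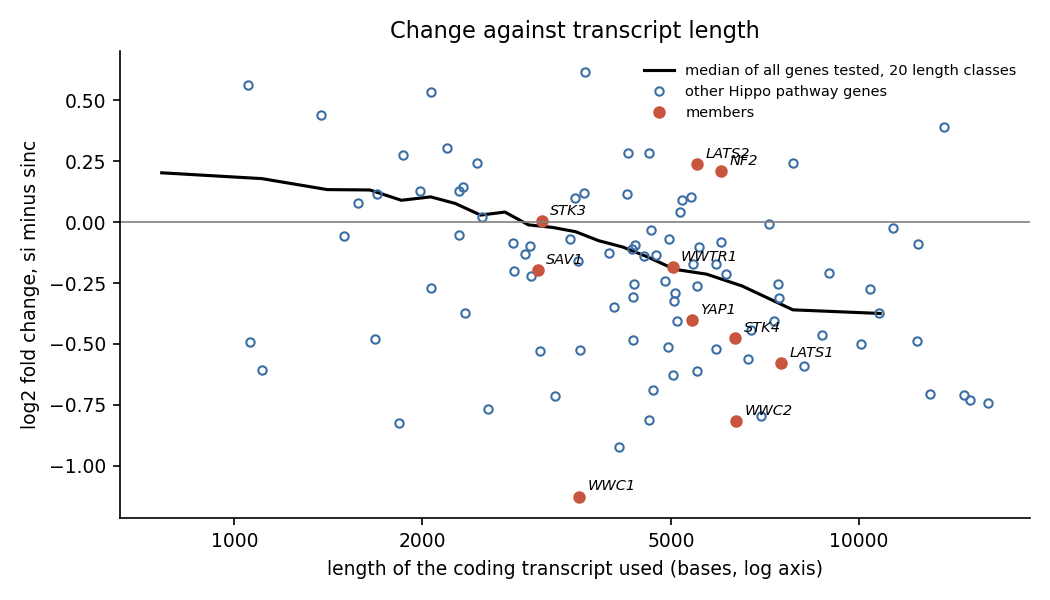
Log2 fold change (si minus sinc) against the length of the coding transcript in bases (log axis) for the 10 Hippo genes, the genes of the wider pathway lists and, as a line, the median of all genes tested in 20 length classes. The line falls with length from 0.20 to -0.37, and WWC1 lies far below it at the length of the transcript used.

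**Figure D3:**
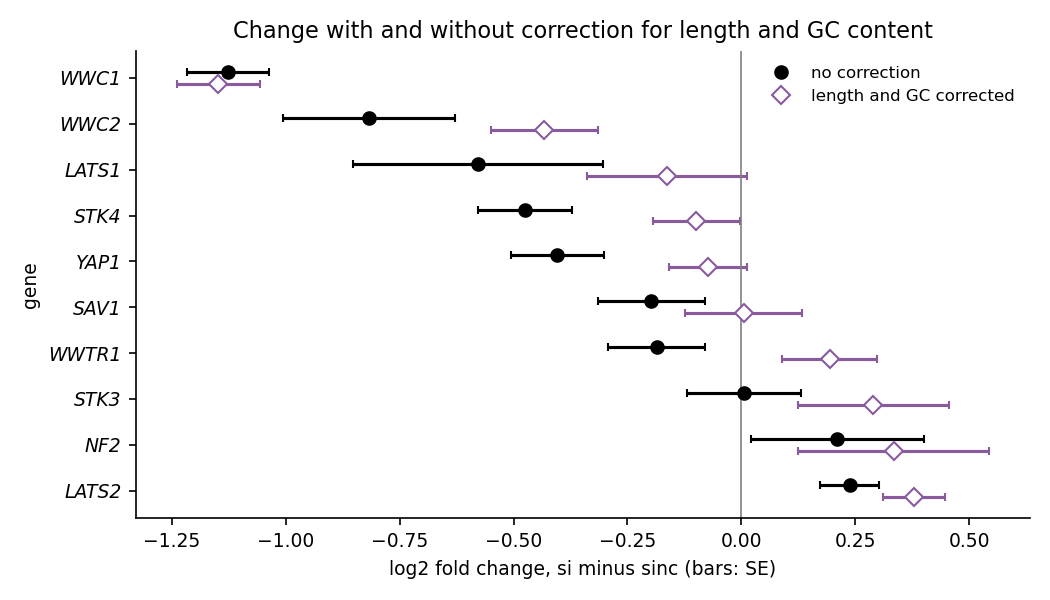
Log2 fold change of the 10 Hippo genes with its standard error, without and with the correction for transcript length and GC content. WWC1 keeps its value (-1.13 and -1.15), whereas STK4 and YAP1 move to -0.10 and -0.073.

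Levels of different genes were compared per kilobase of the coding transcript. In sinc, WWC1 was the most abundant of the 10 at 48.0 ± 1.71 CPM per kilobase, followed by YAP1 at 11.9 ± 0.93, STK4 at 8.06 ± 0.831, LATS2 at 6.86 ± 0.27, SAV1 at 5.71 ± 0.594 and WWTR1 at 4.10 ± 0.42 (SD, n = 3 each). WWC2 at 3.21, NF2 at 3.03 and STK3 at 2.93 CPM per kilobase followed, with ranges that overlapped between neighbours, and LATS1 was last at 1.56. In si, WWC1 was still first at 21.97 ± 2.68 CPM per kilobase, and YAP1 at 8.95 and LATS2 at 8.09 overlapped. STK4 followed at 5.79. The remaining order in si was SAV1, WWTR1, NF2, STK3, WWC2 and LATS1, and only the steps from LATS2 to STK4, from SAV1 to WWTR1 and from STK3 to WWC2 were free of overlap after the step below WWC1. The order depended on the length used. With all exons of a gene joined in place of 1 transcript, WWC1 in sinc stood at 16.97 CPM per kilobase and YAP1 at 10.2, LATS2 at 6.78 stood above STK4 at 5.63, and STK3 was last at 0.723, below LATS1 at 1.35. On that scale WWC1 in si, at 7.77 CPM per kilobase, overlapped with LATS2 at 7.99.

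The balance inside pairs of close homologs was taken on the same per-length scale. WWC1 made up 93.7% ± 0.736 of the sum of WWC1 and WWC2 in sinc and 92.2% ± 2.5 in si, with overlapping groups. STK3 made up 24.9%, 28.5% and 26.9% of STK3 and STK4 in the sinc libraries and 32.2%, 30.9% and 38.2% in the si libraries, without overlap. With all exons joined the STK3 share was 11.4% ± 0.936 in sinc and 15.3% ± 2.29 in si, also without overlap. LATS1 made up 18.5% ± 1.78 of the LATS pair in sinc and 11.3% ± 4.2 in si (SD, n = 3 each). These LATS groups did not overlap, but si replicate 2 at 16.1% lay just below the lowest sinc library at 16.5%. YAP1 made up 74.3% ± 1.77 of YAP1 and WWTR1 in sinc and 71.2% ± 1.9 in si, with overlapping groups.

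WWC1 was set among all genes by the length of its longest unbroken run shared with the 21-base SOGA1 stretch shown above. Of the 12829 genes tested that had a coding transcript, WWC1 was the only one besides SOGA1 with a run of 19 bases or more. The other 9 Hippo genes had longest runs of 8 to 10 bases (LATS2 10, WWC2, NF2 and YAP1 9, the others 8), and WWC3 had 12. The runs of WWC2 and WWC3 lay at other places than their aligned sites shown above. At those places the 2 genes matched the stretch at 11 and 13 of 21 positions. A run of 16 bases or more was found in 13 genes besides SOGA1, of which 10 were called lower (76.9%), with a median log2 fold change of -1.29. Among 9898 genes with a run of at most 9 bases, 5.99% were called lower, with a median of -0.0073. Runs of 18 bases were found, among others, in RPL35, a ribosomal protein gene, at -1.73, CORO7 at -1.29 and the amino acid transporter subunit SLC3A2 at -1.06, all called lower by edgeR (adjusted p = 0.00125, 0.00565 and 0.00978). CORO7-PAM16, which overlaps CORO7, also had 18 bases and stood at 1.83, with means of 1.37 CPM in sinc and 4.96 CPM in si, and was not called (edgeR adjusted p = 0.48). NOD1 and XDH, with 16 bases, had log2 fold changes of -0.44 and 0.14 and did not pass (edgeR adjusted p = 0.132 and 0.623). These genes were named after their values were seen, and the class of 13 genes with 16 bases or more is thin. The part of the stretch in the level of WWC1 was not tested. Since the stretch was picked on these same libraries, the share called lower among genes that match it is no independent support.

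**Figure D4:**
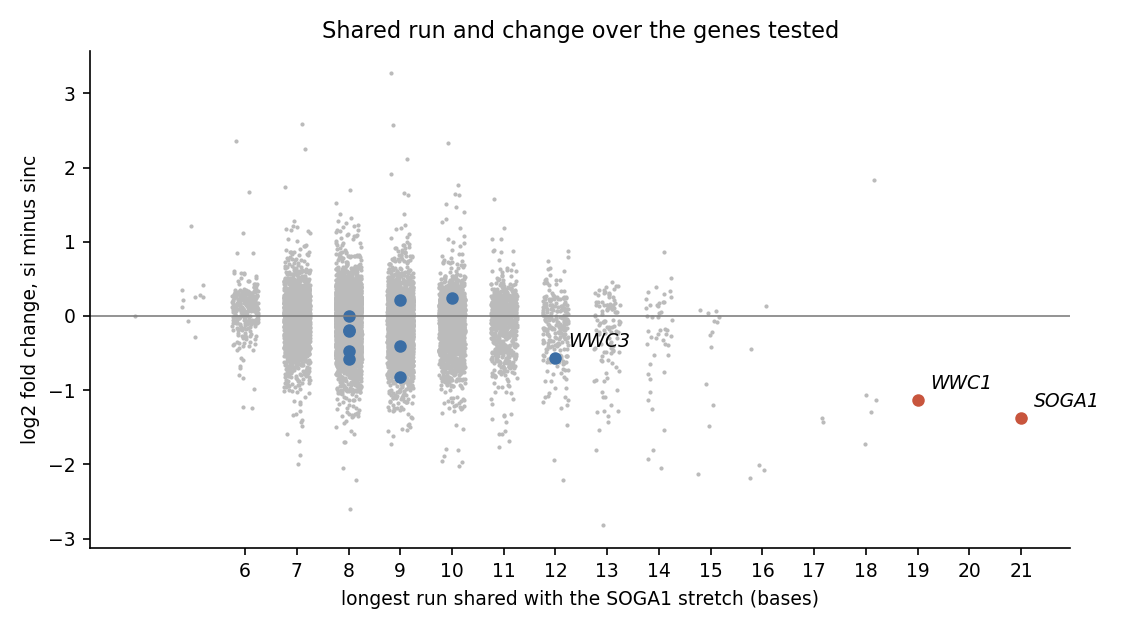
Log2 fold change (si minus sinc) of each gene tested against the longest run of bases that its coding transcript shares with the 21-base SOGA1 stretch. SOGA1 and WWC1 sit at 21 and 19 bases, and the other 9 Hippo genes at 8 to 10, with 6 genes outside the axis limits not drawn.

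The end of the stretch, TGAAGTA, was searched for on the sense strand of 3′ UTRs. Besides SOGA1, 1465 genes (11.4%) held it at least once, and they had a median log2 fold change of -0.31 with 15.9% called lower, beside 0.016 and 6.03% for the 11363 without it. Their transcripts were also longer, with a median of 5263 bases against 2873, and genes of at least 4791 bases had a median of -0.28 with 14.9% called lower. It occurred 2 times in YAP1 and in WWTR1, 1 time in WWC2, SAV1 and LATS2, and not in the 3′ UTR of WWC1, NF2, STK3, STK4 or LATS1. WWC1 held it 1 time in its coding sequence. The 3′ UTR searched in WWC1 measured only 199 bases, so the absence there covers little sequence. All exons of WWC1 joined measured 10076 bases. Among the 5 Hippo genes with a match, log2 fold changes ran from -0.82 in WWC2 to 0.24 in LATS2, so that both directions occurred. The heptamer, too, was picked on these libraries.

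The wider pathway was read from lists of kinases, adaptors and targets that were drawn up with earlier results of these data known. Of 29 tested kinases, MOB adaptors and junction scaffolds, 7 fell (24.1%), 1 rose (3.45%) and 21 did not pass, beside 6.00% lower and 4.14% higher over all genes tested. The median was -0.21 on the log2 scale, beside 0.0058 over all genes. The median transcript of the list measured 4961 bases, and genes of at least 4791 bases had a median of -0.28 with 14.9% called lower. Besides WWC3, the Ras-association gene RASSF3 fell from 32.2 to 22.9 CPM (log2 fold change -0.49, SE 0.09, edgeR adjusted p = 0.0181). MAP4K4, a kinase that can act on the LATS kinases in parallel to STK3 and STK4, fell from 218 to 176 CPM (-0.31, SE 0.06, adjusted p = 0.0229), but stood at 0.052 after the length and GC correction. The LATS relative STK38 fell by 0.53 (SE 0.12, adjusted p = 0.0367), the kinase TNIK by 0.80 (SE 0.20, adjusted p = 0.0442) and the YAP1-binding phosphatase PTPN14 by 0.71 (SE 0.18, adjusted p = 0.0444) on the log2 scale. The remaining calls, named after their values were seen, were the scaffold DLG5, which fell by 0.26 (SE 0.06, adjusted p = 0.0444), and AJUBA, a LIM protein that holds the LATS kinases at junctions, which rose by 0.28 (SE 0.07, adjusted p = 0.0449). The number that fell was 0, 2 and 1 without sinc replicates 1, 2 and 3, and 1, 9 and 4 without si replicates 1, 2 and 3. AJUBA was called in only 1 of the 6 fits that dropped a library, the fit that left out si replicate 2. After the length and GC correction 1 of the list fell and 1 rose, with TNIK at -0.49, PTPN14 at -0.30 and DLG5 at -0.10, none of them called.

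Of 13 tested polarity genes and atypical cadherins, which feed cell contact into the pathway, 1 fell (7.69%, beside 6.00% of all genes tested) and 12 did not pass. The list's median log2 fold change was -0.37 and its median transcript measured 5218 bases, beside a median of -0.28 over the genes of at least 4791 bases. The giant cadherin FAT1 read 173, 161 and 161 CPM in sinc and 100, 130 and 73.7 CPM in si. It fell by 0.71 on the log2 scale (SE 0.18, edgeR adjusted p = 0.0449), with no overlap and with si replicate 2 nearest to sinc. After the length and GC correction FAT1 stood at -0.31 and was not called (adjusted p = 0.162). Its call was lost when any sinc library or si replicate 1 was dropped, whereas dropping si replicate 2 raised the list to 4 genes that fell.

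Of 16 genes of STRIPAK, the phosphatase complex that counteracts STK3 and STK4, 2 fell (12.5%), 1 rose (6.25%) and 13 did not pass, with a median log2 fold change of -0.23. Over all genes tested 6.00% were called lower and 4.14% higher. CTTNBP2NL, a cortactin-binding protein gene, fell by 0.52 on the log2 scale (SE 0.10, edgeR adjusted p = 0.0234), but stood at -0.14 after the length and GC correction. The kinase STK25 rose from 204 to 249 CPM (log2 fold change 0.28, SE 0.06, edgeR adjusted p = 0.0308). After the length and GC correction STK25 stood at 0.32 and was still called (edgeR adjusted p = 0.0300). Neither of these calls held when any 1 sinc library or si replicate 1 was dropped, whereas dropping si replicate 2 raised the list to 5 genes that fell.

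None of 14 tested TEAD factors, VGLL cofactors and genes of YAP1 and WWTR1 turnover passed in edgeR, with a median log2 fold change of -0.25. At an unadjusted p under 0.05, 6 were lower and 2 higher, beside 15.0% and 14.1% of all genes tested. DESeq2 called 2 lower and 2 higher, limma-voom called 0, and edgeR without si replicate 2 called 4 lower and 1 higher. TEAD1 read 39.6, 29.5 and 28.5 CPM in sinc and 12.8, 31.2 and 13.3 CPM in si. Replicate 2 of si lay within the sinc range, so the groups overlapped, and the log2 fold change was -0.77 (SE 0.34, edgeR adjusted p = 0.179). Without si replicate 2 it was -1.33 and called (edgeR adjusted p = 0.00298), the only 1 of 16 other settings in which TEAD1 passed. The other TEAD genes had log2 fold changes of 0.30 for TEAD2, -0.22 for TEAD3 and 0.12 for TEAD4 (edgeR adjusted p = 0.0601, 0.125 and 0.249), and TEAD4 stood at -0.074 after the length and GC correction. The casein kinase genes CSNK1D and CSNK1E, the most abundant of the list, had log2 fold changes of 0.08 and -0.09 (edgeR adjusted p = 0.47 and 0.478).

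Of 20 tested genes known as targets of YAP1 and WWTR1, 3 fell (15.0%), none rose and 17 did not pass, with a median log2 fold change of -0.14. The shares over all genes tested were 6.00% lower and 4.14% higher, and 14.9% lower among genes of at least 4791 bases. The median transcript of the target list lay below that cutoff, at 4034.5 bases. At an unadjusted p under 0.05, 4 targets were lower and 2 higher, beside 15.0% and 14.1% of all genes. DESeq2 called 4 lower and 1 higher, and limma-voom 3 lower and 0 higher. The membrane repair gene MYOF read 208, 204 and 233 CPM in sinc and 153, 158 and 165 CPM in si, without overlap. It fell by 0.44 on the log2 scale (SE 0.07, edgeR adjusted p = 0.0121), but not to a called extent without sinc replicate 1 or si replicate 1, nor after the length and GC correction (-0.14, adjusted p = 0.403). The matricellular gene CTGF (CCN2) read 136, 132 and 141 CPM in sinc and 118, 108 and 90.4 CPM in si. It fell by 0.37 (SE 0.10, edgeR adjusted p = 0.0491) on the log2 scale, and was not called when any 1 sinc library or si replicate 1 was dropped. PTPN14, given above, was the third. CYR61 (CCN1), often read beside CTGF, averaged 1079 CPM in sinc and 1181 CPM in si, with overlapping groups and a log2 fold change of 0.13 (SE 0.07, edgeR adjusted p = 0.254). Dropping sinc replicate 1 or si replicate 1 left 0 targets that fell, dropping either other sinc library left 1, and dropping si replicate 2 gave 6. After the length and GC correction there were 0, although CTGF then stood at -0.43 (adjusted p = 0.0596), a wider difference than without it.

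**Figure D5:**
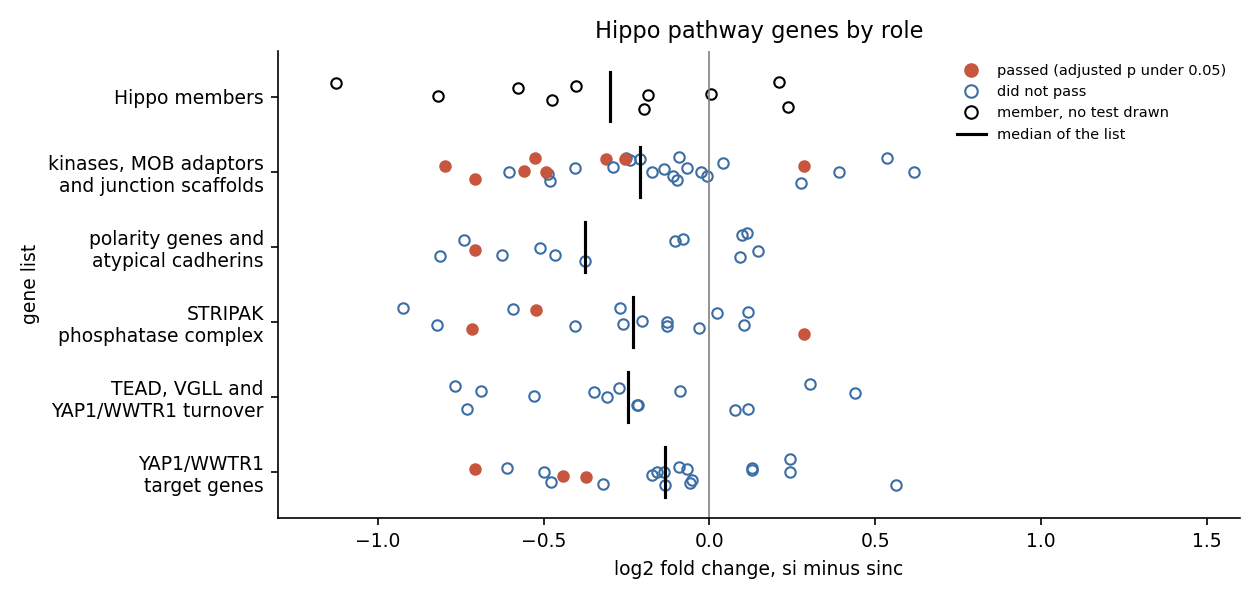
Log2 fold change (si minus sinc) of the genes tested in the Hippo core and in 5 wider lists, 1 point per gene. Genes of the wider lists past the threshold are filled, the core genes are hollow whether called or not, and a bar marks each median. The medians lie between -0.37 and -0.14, and WWC1 at -1.13 is the lowest of the core.

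Among the genes whose levels followed WWC1 most closely over the 6 libraries, by Pearson's correlation of log2 CPM, were TMEM209, HOXB6, RTCA and LARS2, with r between 0.998 and 1.000. Each correlation is a description over 6 libraries that share the split into sinc and si. The homeobox gene HOXB6 averaged 48.7 CPM in sinc and 19.1 CPM in si. The longest runs that these 4 genes share with the SOGA1 stretch were 7 to 9 bases, against 19 in WWC1.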

How the data were processed

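Libraries were prepared from poly(A)-selected RNA with dUTP strand marking and about 15 PCR cycles, per the labels' protocols. The authors deposited 1 table of raw counts, genes by libraries; the submitters' processing notes name CASAVA and StringTie. The sources used here do not state versions, aligner, genome build, annotation or the use of strand in counting, so reads of overlapping genes or near-identical copies may have been split. Counts are not independent molecules, since no molecular identifiers were used. The 773 rows without a symbol held 0.0864% of counts.

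Counts were filtered at a minimum of 10, scaled by TMM and tested with edgeR 4.0.16 (R 4.3.3) by its quasi-likelihood functions (glmQLFit, glmQLFTest) with no term besides the group, Benjamini-Hochberg adjustment and a threshold of 0.05. The common biological coefficient of variation was 18.8%. Standard errors were derived from the log2 fold change and the F statistic. Library pairs within a group differed by 14.1 to 61.1 in chi-square per gene, so none is a mere resequencing of another. The measure cannot tell separate cultures from separate preparations of the same culture or RNA.

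The members and lists were chosen with earlier results of these data known. Named genes were the members, SOGA1, WWC3, the TEAD genes, up to 6 called genes per list by adjusted p (where none was called, the 2 highest in CPM), and the 5 genes most correlated with WWC1 at a mean of at least 5 CPM. Of the lists, VGLL1, COL1A2, PTPRC, CDH1 and MUC16 were not analysed here, and some genes that the naming rule takes are not reported. Transcripts came from GENCODE 29 on GRCh38, 1 per gene with the longest coding sequence, for 82.4% of the genes tested. Alternatives were DESeq2 1.42.0, limma-voom (limma 3.58.1), scaling by RLE, upper quartile or total count, no filter, a minimum of 50, a replicate block, each library left out, and spline offsets (4 degrees of freedom) for transcript length and GC with the same genes without them.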

Additional observations from a re-analysis of the deposited data

How the results depend on the processing

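The fall of WWC1 and SOGA1 was found under every alternative run; the lists rest on fewer settings, and the causes of the changes below were not tested. Over the whole table, 934 genes were lower and 645 higher. DESeq2 gave 1586 and 1252, the length and GC correction 331 and 230, the upper-quartile scaling 1005 higher, and no filter on counts 163 higher. The replicate number was also entered as a block, although nothing in the labels pairs the libraries. Same-numbered libraries deviated from their group means with correlations of -0.18, -0.035 and 0.15, and only the third pair was each other's best match. These values, from 3 libraries per group, cannot decide whether the libraries are paired. With the replicate block 336 genes were lower and 102 higher, and the numbers lower were 1 of the Hippo core, 1 of the kinases list, 0 of polarity, 1 of STRIPAK and 1 of the targets, with 0 higher in the kinases and STRIPAK lists. Leaving out 1 library gave 172 to 1782 genes lower and 31 to 781 higher. In those fits the Hippo core held 1 to 5 lower, the kinases list 0 to 9 lower and 0 to 1 higher, polarity 0 to 4 lower, STRIPAK 1 to 5 lower and 0 to 1 higher, the TEAD list 0 to 4 lower and 0 to 1 higher, and the targets 0 to 6 lower and 0 to 2 higher.

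The Hippo core had 1 gene called higher with DESeq2, a minimum count of 50, upper-quartile scaling, the length and GC correction and its uncorrected gene set, and 2 called lower without a filter. The kinases list had 2 higher with DESeq2, 3 lower and 0 higher without a filter, 0 higher with total-count scaling, and 1 lower after the length and GC correction. Polarity genes had 4 lower with DESeq2, 2 with limma-voom, a minimum of 50 and the uncorrected gene set, and 0 without a filter, with upper-quartile scaling and after the correction. STRIPAK had 0 higher without a filter and 1 lower after the correction. The TEAD list had 2 lower and 2 higher with DESeq2, 1 lower with total-count scaling and 2 higher with upper-quartile scaling and in the uncorrected gene set. The targets had 1 higher with DESeq2 and upper-quartile scaling, 1 lower without a filter and 0 lower after the correction. That correction turned CSNK1D to -0.12, MAP4K4 to 0.052 and TEAD4 to -0.074. Members near 10 CPM, such as STK3 and LATS1, rest on the fewest reads. With 3 libraries per group, 1 library can decide a call.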
